A study of Oryza sativa with 6 samples.

Results

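In all, 5 members of the rice ammonium transporter family were followed here through root RNA sequencing of the OsMADS61 mutant line mads61-3 and of wild-type (WT) plants of Oryza sativa. The genes were chosen by locus identifier from a list of 9 loci of the AMT1, AMT2 and AMT3 subfamilies. Of these, 5 had a row among the 36960 features of the count and FPKM tables, and all 5 had enough reads to be tested, as did 25531 features in all. They are AMT1.1 (also written AMT1;1, Os04g0509600, chromosome 4, listed as AMT1), AMT1.2 (Os02g0620500, chromosome 2, listed as OsAMT1), AMT2.1 (Os05g0468700, chromosome 5, listed as OsAMT2), AMT3.2 (Os03g0838400, chromosome 3, listed as AMT3) and AMT3.3 (Os02g0550800, chromosome 2, listed as OsAMT3). The paralog number after the point follows common usage for rice and is not in the tables. The other 4 loci, Os02g0620600 (AMT1.3), Os01g0831900 and Os01g0831300 (AMT2 subfamily) and Os01g0870300 (AMT3 subfamily), were not analysed here.

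There were 3 libraries of mads61-3 roots and 3 of WT roots. OsMADS61 encodes a MADS-box transcription factor, and the mutant group is a single line whose kind of allele the sources used here do not name. Every plant of both groups grew in hydroponic medium, 5 seedlings to a tank of 8 L, with 2.5 mM nitrate and no fungal partner, and the study used the comparison to ask about control of nitrate transport. The sources used here name neither age nor cultivar. Because nothing says that the libraries of a group came from separate tanks, the spread behind the p-values may be technical.

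AMT proteins are channel-like membrane proteins that carry ammonium into and between cells. In rice roots, members of the AMT1 subfamily take up ammonium from the medium with high affinity. Transcripts of AMT1.2 are known as root-specific and raised by ammonium supply, AMT1.1 as expressed in both roots and shoots, and AMT1.3 as raised when nitrogen runs short. The AMT2 and AMT3 proteins form a separate branch of the family, closer to the MEP transporters of fungi, and AMT2.1 is known to be expressed in roots and shoots without strong dependence on nitrogen supply. Inside the cell ammonium is joined to glutamate by glutamine synthetase, and glutamate synthase then passes the nitrogen on.

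Totals ran from 24145708 to 34179150 counts per library, at which 3 counts, the upper limit given to a count of 0, equalled 0.0875 to 0.131 CPM (counts scaled to library size by TMM). OsMADS61 itself (Os04g0461300) had 6.24, 2.41 and 4.63 CPM in mads61-3 replicates 1 to 3, against 552, 573 and 2.38 CPM in the libraries labelled WT replicates 1 to 3. The library labelled WT replicate 3 thus went against the other WT libraries in this gene, and the tests on the transporters are given with and without it. Directions count that library as WT. Over genes, WT replicates 1 and 3 correlated at a rho of 0.882, below every pair of a mads61-3 and a WT library (0.893 to 0.940). WT replicate 2 correlated with WT replicates 1 and 3 at 0.939 and 0.951. Root markers RCc3, LSI1 and LSI2 were found in every library, with sums of 5848, 2997 and 7059 CPM in mads61-3 replicates 1 to 3 and of 3085, 1626 and 1776 CPM in WT replicates 1 to 3. LSI1 and LSI2 made up most of these sums, with positive log2 fold changes of 1.45 and 1.70. RCc3 had a negative log2 fold change, -2.56 (edgeR, adjusted p = 0.294), with 68.5, 77.0 and 56.0 CPM in mads61-3 replicates 1 to 3 and 28.5, 216 and 940.3 CPM in WT replicates 1 to 3. In DESeq2 its adjusted p was 0.0495. LSI1 and LSI2 passed on the higher side in DESeq2 (adjusted p = 0.0359 and 0.0460) but not in edgeR (adjusted p = 0.240 and 0.264). The DESeq2 background was 3.96% of genes higher and 4.75% lower. Of 4 leaf markers (RBCS, RbcS3, CAB1R and CAB2R), which stand for Rubisco small subunits and chlorophyll-binding proteins, all were found in each library except RbcS3 and CAB2R, which were at 0 in WT replicate 3. Their sums were 14.0, 172 and 65.4 CPM in mads61-3 replicates 1 to 3 and 1.14, 15.8 and 6.48 CPM in WT replicates 1 to 3. The leaf sums lay higher in mads61-3 except that replicate 1 was below WT replicate 2. They were highest in mads61-3 replicate 2, the mutant library with the lowest CPM of every transporter below. Of the 4 leaf markers edgeR called 0, and DESeq2 called 1 higher, RBCS (log2 fold change 3.86, DESeq2, adjusted p = 0.000811). All 4 had positive log2 fold changes. The part of either marker list in the results was not tested.

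The 5 ammonium transporters had fitted log2 fold changes (mads61-3 over WT) between 0.05 and 2.43, all on the positive side, and none passed the test across all genes. AMT1.2 and AMT3.2 had the large estimates, AMT2.1 and AMT3.3 estimates well under 1 on the log2 scale, and AMT1.1 an estimate close to 0. The quasi-likelihood test of edgeR with Benjamini-Hochberg adjustment called 0 of 5 members in either direction at an adjusted p under 0.05, where 0.325% of all tested genes were called higher and 0.924% lower. AMT1.2, AMT2.1 and AMT3.2 had an unadjusted p under 0.05 on the higher side, 3 of 5 members, and 0 on the lower, with a background of 7.86% of genes higher. DESeq2 called 1 member higher, AMT1.2, with a background of 3.96%, and limma-voom called 0, with a background of 0.302%. Without WT replicate 3, edgeR again called 0 (background 0.745% higher), with AMT1.2 and AMT3.2, 2 of 5 members, at an unadjusted p under 0.05 (background 9.24%). DESeq2 then called these same 2 genes higher, with a background of 5.19%. Positive log2 fold changes were found for 47.2% of all tested genes, whose median was -0.04, while the median of the 5 members was 0.65. In bulk roots, a change in the number of cells of a type and a change in RNA per cell cannot be told apart.

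**Figure D1:**
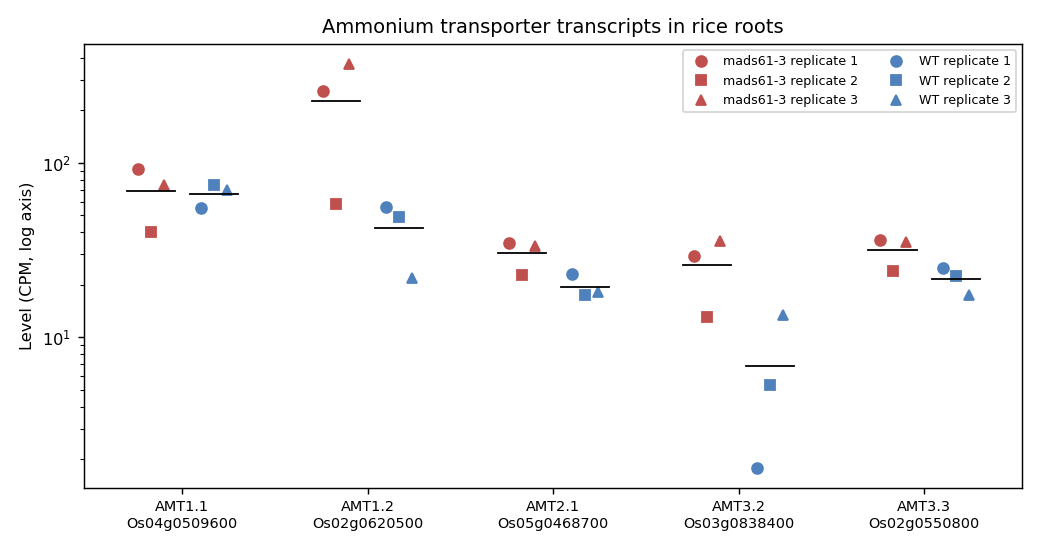
Level of 5 ammonium transporter genes (CPM, log axis) in 3 mads61-3 libraries (red, left) and 3 WT libraries (blue, right), with a symbol per replicate and a line at each group mean. For AMT1.2 the lowest mads61-3 library (57.8 CPM) lies just above the highest WT library (55.6 CPM), and for the other genes the groups overlap.

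AMT1.2, whose transcripts are known as root-specific, showed the largest estimate among the 5 genes. Its read counts were 8810, 1750 and 10014 in mads61-3 replicates 1 to 3 and 1270, 1239 and 613 in WT replicates 1 to 3. In CPM these were 257, 57.8 and 368 in mads61-3 and 55.6, 49.1 and 21.8 in WT. The groups did not overlap in CPM, but mads61-3 replicate 2 stood beside WT replicate 1, while mads61-3 replicates 1 and 3 lay far above every other library. Only this member of the 5 had all mads61-3 libraries above all WT libraries in CPM, as did 11.4% of tested genes. The fitted ratio was 5.40-fold (95% interval 1.72 to 16.9), a log2 fold change of 2.43 (SE 0.69) with an adjusted p of 0.149 by edgeR. In DESeq2 the log2 fold change was 2.45 and passed (adjusted p = 0.00362), and without WT replicate 3 it was 2.13 and passed (DESeq2, adjusted p = 0.0131). With WT replicate 3 left out, the log2 fold change was 2.12 (edgeR, adjusted p = 0.197), and without mads61-3 replicate 2 it was 2.89 (edgeR, adjusted p = 0.0828). By locus number AMT1.2 lies next to the similar gene AMT1.3, and how reads of such copies were divided is uncertain.

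AMT1.1, the other AMT1 gene measured, had about the same mean read count level in both groups. It had 91.7, 40.2 and 75.0 CPM in mads61-3 replicates 1 to 3 and 55.5, 74.3 and 69.7 CPM in WT replicates 1 to 3. Both the highest and the lowest library were mutants, and the WT values lay between them. The means were 69.0 ± 26.3 CPM in mads61-3 and 66.5 ± 9.83 CPM in WT (SD, n = 3 each). The log2 fold change was 0.05 (SE 0.32, edgeR, adjusted p = 0.956). The 95% interval of the ratio ran from 0.609-fold to 1.77-fold, so the fit does not exclude a difference inside that range. The sign changed to negative in limma-voom, under a replicate block and without mads61-3 replicate 1 or 3 or WT replicate 1. With WT replicate 3 left out, the value was 0.09 (edgeR, adjusted p = 0.939).

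The difference between the AMT1 genes was tested directly, as the log2 ratio of AMT1.2 to AMT1.1 within each library (CPM with a prior count of 2). This ratio was 1.48, 0.52 and 2.29 in mads61-3 replicates 1 to 3 and 0.00, -0.60 and -1.67 in WT replicates 1 to 3. In CPM every mutant library thus had relatively more AMT1.2 than every WT library. The group means of 1.43 in mads61-3 and -0.76 in WT differed by 2.19 (exact two-sided permutation test, p = 0.1, the smallest that 3 against 3 libraries can give). Only this pair was tested. With WT replicate 3 left out, the difference was 1.73 (exact permutation test, p = 0.2). From log2(FPKM + 0.1) it was 1.56 (exact permutation test, p = 0.2).

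AMT2.1 had a smaller estimate than AMT1.2 and AMT3.2. It had 35.0, 22.9 and 33.6 CPM in mads61-3 replicates 1 to 3 and 22.9, 17.4 and 18.1 CPM in WT replicates 1 to 3. The lowest mutant library, replicate 2, and the highest WT library, replicate 1, had the same level to 3 digits, and the others stood apart by group. The log2 fold change was 0.65 (SE 0.25, edgeR, adjusted p = 0.255), a ratio of 1.57-fold with a 95% interval of 1.05 to 2.34. Leaving out WT replicate 3 gave 0.60 (edgeR, adjusted p = 0.3).

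AMT3.2 had the second estimate by size and the lowest FPKM of the 5 genes in WT replicates 1 and 2. Its counts were 1001, 397 and 977 in mads61-3 replicates 1 to 3 and 41, 134 and 377 in WT replicates 1 to 3. In CPM the mads61-3 libraries had 29.2, 13.1 and 35.9 and the WT libraries 1.79, 5.31 and 13.4. Each library of mads61-3 lay above WT replicates 1 and 2, and the overlap came from the library labelled WT replicate 3, which stood just above mads61-3 replicate 2. The ratio was 3.80-fold (95% interval 1.15 to 12.5), a log2 fold change of 1.93 (SE 0.73, edgeR, adjusted p = 0.253). It moved to 2.87 without that WT library (edgeR, adjusted p = 0.0813) and to 1.48 without WT replicate 1 (edgeR, adjusted p = 0.155). The value in DESeq2 was 1.93 (adjusted p = 0.065), and without WT replicate 3 it was 2.87 and passed (DESeq2, adjusted p = 5.88e-05).

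AMT3.3 had 36.1, 23.9 and 35.0 CPM in mads61-3 replicates 1 to 3 and 25.0, 22.5 and 17.4 CPM in WT replicates 1 to 3. Mutant replicates 1 and 3 were above all WT libraries, and mutant replicate 2 lay within their range. The log2 fold change was 0.55 (SE 0.25, edgeR, adjusted p = 0.335), or 1.46-fold with a 95% interval of 0.970 to 2.21. Leaving out WT replicate 3 gave 0.42 (edgeR, adjusted p = 0.424).

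Levels of different genes were set side by side only in FPKM, which is scaled by length. AMT1.2 was the most abundant transporter in all mads61-3 libraries, at 162, 40.2 and 223 FPKM in replicates 1 to 3, and in WT replicates 1 and 2, at 29.6 and 32.0 FPKM. In WT replicate 3 it had 13.9 FPKM and AMT1.1 was above it with 25.6 FPKM. AMT1.1 ranged from 18.3 to 33.1 FPKM in mads61-3 and from 10.3 to 25.6 FPKM in WT, and AMT2.1 from 11.4 to 16.2 FPKM in mads61-3 and from 6.96 to 8.61 FPKM in WT. AMT3.2 ranged from 7.64 to 18.2 FPKM in mads61-3 and from 0.798 to 7.17 FPKM in WT. AMT3.3 ranged from 4.55 to 11.1 FPKM in mads61-3 and from 2.36 to 5.48 FPKM in WT. Among mutants the order was AMT1.2, AMT1.1 and then AMT2.1 without overlap of their ranges, while AMT3.2 overlapped both AMT2.1 and AMT3.3, whose ranges lay apart from each other. In WT the ranges of AMT1.2 and AMT1.1 overlapped, both lay above AMT2.1, and the range of AMT3.2 overlapped those of AMT2.1 and AMT3.3. All mutant libraries stood above all WT libraries in FPKM for AMT1.2, AMT2.1 and AMT3.2, as they did for 16.5% of tested genes, with 8.3% the other way. In CPM this held only for AMT1.2. FPKM followed the library totals without the TMM factors used for CPM, which were 1.12 in mads61-3 replicate 2 and 0.854 in WT replicate 1. The part of scaling in the FPKM separation was not tested.

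The summed FPKM of the 5 genes was 237, 82.1 and 295 in mads61-3 replicates 1 to 3 and 51.7, 62.0 and 59.0 in WT replicates 1 to 3. The WT sums were close together, while mads61-3 replicates 1 and 3 were well above mads61-3 replicate 2, which itself exceeded every WT library in FPKM. In CPM the sum of mads61-3 replicate 2, 158, was below those of WT replicates 1 and 2, 161 and 169. AMT1.2 made up 68.4%, 49.0% and 75.6% of the sum in mads61-3 replicates 1 to 3 and 57.2%, 51.6% and 23.6% in WT replicates 1 to 3. In FPKM the share in mads61-3 replicate 2 was therefore below those in WT replicates 1 and 2. In CPM AMT1.2 had 57.8 of 158 in that mutant library. WT replicates 1 and 2 had 55.6 of 161 and 49.1 of 169, so the order was the opposite. The FPKM sums and shares include AMT1.1 and AMT3.3, whose FPKM did not move with their counts, as given below. AMT3.2 held 6.51%, 9.31% and 6.17% in mads61-3 and 1.54%, 4.67% and 12.1% in WT, so its highest and its lowest shares were both in WT libraries.

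**Figure D2:**
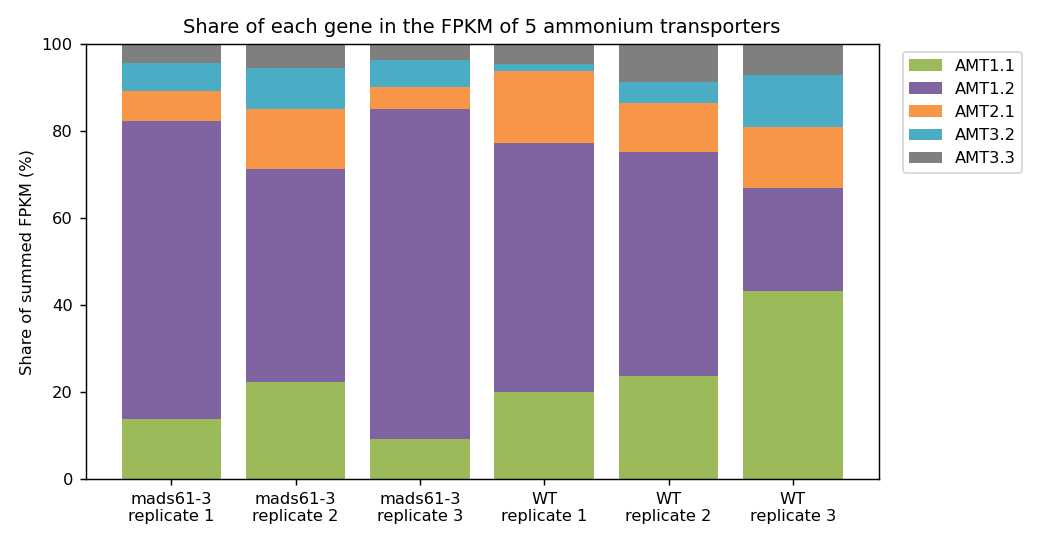
Share of each gene in the summed FPKM of 5 ammonium transporters (%), a stacked bar per library, with mads61-3 libraries on the left and WT libraries on the right. AMT1.2 holds 68.4% and 75.6% in mads61-3 replicates 1 and 3, 49.0% in mads61-3 replicate 2, and only 23.6% in WT replicate 3, where AMT1.1 has the largest share. The shares include AMT1.1 and AMT3.3, whose FPKM did not move with their counts.

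For AMT1.1 and AMT3.3 the deposited counts and FPKM did not move together. Dividing the count, scaled to the library total, by FPKM gives the length in kb that links both tables, which is nearly constant when they rest on the same reads and the same length. Over 24532 tested genes with FPKM above 0 in every library, the largest value divided by the smallest over the 6 libraries had a median of 1.01, and 90% of genes were at or below 1.1. For AMT1.2 this ratio was 1.01 (1.59 to 1.61 kb) and for AMT3.2 it was also 1.01 (1.90 to 1.92 kb). For AMT1.1 it was 2.16, higher than in 99.8% of genes, with 2.78, 2.46 and 2.62 kb in mads61-3 replicates 1 to 3 and 4.57, 5.30 and 2.80 kb in WT replicates 1 to 3. WT replicates 1 and 2 thus had fewer FPKM per count of AMT1.1 than the other 4 libraries. For AMT3.3 it was 2.97, higher than in 99.9% of genes, with 3.54, 5.89 and 3.05 kb in mads61-3 replicates 1 to 3 and 9.04, 4.29 and 4.33 kb in WT replicates 1 to 3. AMT2.1 lay between, with a ratio of 1.2, still higher than in 96.1% of genes, and its highest value, 2.61 kb, in WT replicate 2.

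The size of the estimate for these genes hung on the table used. On log2(FPKM + 1) limma gave AMT1.1 a log2 fold change of 0.67 (adjusted p = 0.409), against 0.05 from counts, and AMT3.3 one of 0.92 (adjusted p = 0.288), against 0.55 from counts. AMT1.2 had 2.21 (limma, adjusted p = 0.145), AMT2.1 had 0.76 (limma, adjusted p = 0.132) and AMT3.2 had 1.86 (limma, adjusted p = 0.162) on the same scale, which understates changes of low genes. Limma called 0 of 5 members there, with a background of 0.725% called higher. Without WT replicate 3 limma again called 0, with a background of 1.23%, and AMT1.1 had 1.00, AMT1.2 had 1.85, AMT2.1 had 0.78, AMT3.2 had 2.40 and AMT3.3 had 0.96 on this scale (adjusted p of 0.0568 to 0.31). The order of AMT1.1 and AMT3.3 among the FPKM levels above carries the same uncertainty, as do the FPKM sums and shares that include them.

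**Figure D3:**
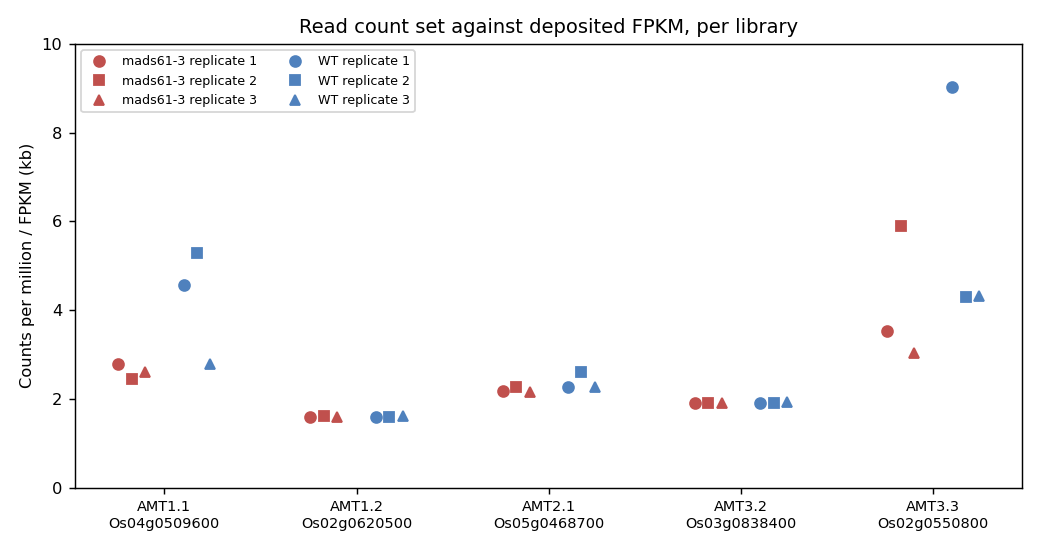
Read count, scaled to the library total, divided by deposited FPKM (kb) for each ammonium transporter and library, mads61-3 in red on the left and WT in blue on the right. AMT1.2 and AMT3.2 hold nearly the same value over the 6 libraries, while AMT1.1 runs from 2.46 to 5.30 kb and AMT3.3 from 3.05 to 9.04 kb.

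Over the libraries the genes fell into different patterns. As a measure of likeness, log2 CPM was taken as deviation from the mean of each gene, and the root mean square difference between 2 genes was computed over the 6 libraries. AMT2.1 and AMT3.3 were most alike, at 0.13, and AMT1.1 differed from them by 0.44 and 0.41. AMT1.2 and AMT3.2 each differed from every other member by at least 1.07, and from each other by 1.28. Without WT replicate 3, AMT1.2 differed from AMT3.2 by 0.89, but from AMT2.1, AMT3.3 and AMT1.1 by a similar 0.90, 0.96 and 1.03. AMT2.1 and AMT3.3 were still the closest pair at 0.12. Among 6857 other tested genes with a name and a mean of at least 1 CPM, those nearest to AMT1.2 were PRX118, a peroxidase gene, at 0.33, OsSAUR7, a small auxin-up RNA gene, at 0.35 and OsMT1f, a metallothionein gene, at 0.35. Nearest to AMT3.2 were OsOFP17 at 0.37, OsGLR2.3 at 0.40 and OsCCD8a, of the carotenoid cleavage dioxygenase family, at 0.43. AMT1.1 was nearest to OsAT4 at 0.10, OsWRKY55 at 0.17 and TBPOs-1 at 0.17. AMT2.1 was nearest to OsDjC11, OsUBC18 and LACS7 at 0.06 each, and AMT3.3 to OsGB1b at 0.05, HDR1 at 0.07 and OsFH13 at 0.07. The genes share the same 6 libraries and their scaling, so these distances are descriptions.

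The genes that assimilate ammonium included calls on the lower side. Of 11 tested genes of ammonium assimilation, 2 fell in mads61-3 and 0 rose by edgeR, against a background of 0.924% of genes lower. On the lower side 4 had an unadjusted p under 0.05 (background 8.68%), and DESeq2 called 4 (background 4.75%). OsGLN2, the plastid glutamine synthetase, had 4.34, 11.8 and 6.09 CPM in mads61-3 replicates 1 to 3 and 53.5, 86.1 and 60.3 CPM in WT replicates 1 to 3, groups that lay far apart. Its log2 fold change was -3.17 (SE 0.43, edgeR, adjusted p = 0.0298). ASN1, an asparagine synthetase, had 16.1, 19.2 and 16.0 CPM in mads61-3 and 64.7, 72.3 and 78.8 CPM in WT, with little spread in either group. Its log2 fold change was -2.07 (SE 0.20, edgeR, adjusted p = 0.0146). The list ran from -3.17 to 0.52 on the log2 fold change scale, with a median of -0.32. Both calls were lost without mads61-3 replicate 1, 2 or 3, with log2 fold changes of -2.87, -3.67 and -3.04 for OsGLN2, and for ASN1 of -2.16 without replicate 2 and -2.02 without replicate 3. The adjusted p was then 0.151, 0.0517 and 0.172 for OsGLN2 and 0.122, 0.0517 and 0.11 for ASN1 (edgeR). In these fits edgeR called only 0, 5 and 0 of all tested genes lower, so the losses were not particular to these genes. With a replicate block ASN1 did not pass (edgeR, log2 fold change -2.07, adjusted p = 0.0521). OsGLN2 was also lost without WT replicate 2 (edgeR, log2 fold change -2.94, adjusted p = 0.0731).

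Of 2 tested regulators of AMT1 genes, 0 were called by edgeR, also 0 at an unadjusted p under 0.05 and 0 by DESeq2. OsIDD10, a zinc finger factor known to activate AMT1.2, had 52.2, 89.9 and 47.4 CPM in mads61-3 replicates 1 to 3 and 31.4, 35.2 and 67.1 CPM in WT replicates 1 to 3 (log2 fold change 0.50, edgeR, adjusted p = 0.574). Its highest mutant library, replicate 2, was the one with the lowest AMT1.2. OsACTPK1, a kinase known to phosphorylate AMT1.2 when ammonium is plentiful, had 13.8, 9.74 and 19.6 CPM in mads61-3 and 15.2, 8.08 and 2.56 CPM in WT (log2 fold change 0.74, edgeR, adjusted p = 0.612). The groups overlapped for both genes.

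Of 2 tested genes of urea uptake and breakdown, edgeR called 0, DESeq2 called 2 higher (background 3.96%), and both had an unadjusted p under 0.05 in edgeR (background 7.86% higher). OsDUR3, a high-affinity urea transporter, had 82.7, 9.01 and 84.1 CPM in mads61-3 replicates 1 to 3 and 5.38, 9.62 and 3.88 CPM in WT replicates 1 to 3. As for AMT1.2, mads61-3 replicates 1 and 3 were far above the rest and replicate 2 was near the WT level. The log2 fold change was 3.22 (SE 0.83, edgeR, adjusted p = 0.122) and passed in DESeq2 (3.23, adjusted p = 0.000475). OsARG, an arginase, which releases urea from arginine, had 14.2, 22.0 and 13.7 CPM in mads61-3 and 7.18, 6.46 and 9.11 CPM in WT, with no overlap, as for 11.4% of genes (log2 fold change 1.13, edgeR, adjusted p = 0.121). It passed in DESeq2 too (1.13, adjusted p = 0.0093).

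**Figure D4:**
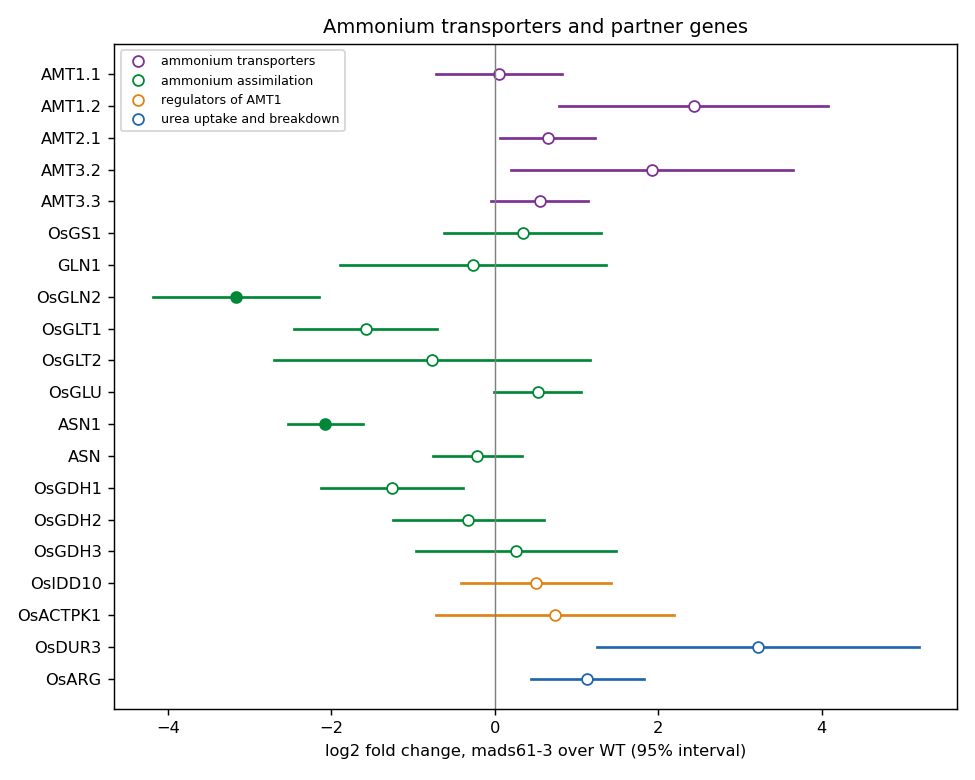
Log2 fold change (mads61-3 over WT) with its 95% interval from edgeR for 5 ammonium transporters and for genes of assimilation, regulation and urea handling. Filled points passed an adjusted p under 0.05 across all genes, which holds for OsGLN2 at -3.17 and ASN1 at -2.07, while the transporters lie between 0.05 and 2.43 with open points.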

How the data were processed

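RNA from 6 rice root samples was sequenced after preparation with an mRNA library kit, per the labels' protocols. The authors deposited whole-number read counts per feature, not normalised, and FPKM values for the same features and libraries, scaled by them to length and depth. The submitters' processing notes name HISAT2 2.0.5 and StringTie 1.3.3, together with SAMtools 0.1.18, and, per the same notes, the human build GRCh38, although the identifiers are rice loci. Counter, strand setting and rice annotation were not given in the sources used here. Hence antisense or overlapping reads cannot be told apart and no coordinates or sequences are given. Chromosomes come from the locus identifiers. Mutant columns carry only mads61 and a number, taken here as the replicate number of line mads61-3.

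Deposited counts were compared with edgeR 4.0.16 under R 4.3.3 (quasi-likelihood, two-sided, robust, TMM). Features needed at least 10 counts in enough libraries and 15 in total, the default. The model held only the group, and p-values were adjusted by Benjamini-Hochberg over the 25531 features kept. SE was obtained from the fold change and the square root of F, and 95% intervals use the degrees of freedom of the fit. Alternatives were DESeq2 1.42.0, limma 3.58.1 with voom or on log2(FPKM + 1) and log2(FPKM + 0.1), with a mean FPKM of at least 0.5 or no filter, edgeR with RLE size factors, without a filter or with a replicate block, and leaving out each library. DESeq2 and limma without WT replicate 3 were added after seeing the data. Intervals and zero-count limits cover counting error or the spread of libraries only, since without molecular identifiers reads do not count independent molecules.

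The members, the gene lists and the tests were chosen with earlier results of these data known. The rule named every transporter in the tables, up to 4 called genes with the largest change from each other list or else the 2 most abundant, the 3 genes nearest in pattern to each transporter, and OsMADS61. Of 27 other list and marker loci, 5 were left out because the locus was not analysed here or its listed name was missing or that of another gene.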

Additional observations from a re-analysis of the deposited data

How the results depend on the processing

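AMT1.2, AMT2.1, AMT3.2 and AMT3.3 kept a positive log2 fold change under all 14 alternatives fixed at the start, with ranges of 1.91 to 2.89, 0.57 to 0.82, 1.48 to 2.87 and 0.42 to 1.07. Of these alternatives only DESeq2 put a member past the threshold, AMT1.2 at 2.45, a count of 1 transporter called higher. In a further DESeq2 fit without WT replicate 3, added after seeing the data, AMT1.2 at 2.13 and AMT3.2 at 2.87 passed, while limma-voom (1.76 and 2.92) and limma on log2(FPKM + 1) (1.85 and 2.40) without that library called 0 transporters. AMT1.1 was -0.020 in limma-voom and -0.015 with the replicate block, and -0.17 to 0.33 when 1 library was left out. The log2 ratio of AMT1.2 to AMT1.1 differed by 1.73 to 2.64 when 1 library was left out. DESeq2 called 1127 genes higher and 1354 lower, against 83 and 236 in edgeR, and 4 assimilation genes lower and 2 urea genes higher. Limma called 174 genes higher on log2(FPKM + 1) and 170 on log2(FPKM + 0.1). Leaving out 1 library gave 0 to 228 genes higher and 0 to 529 lower, and 0 to 3 assimilation genes lower. The 0 for assimilation genes came without mads61-3 replicate 1, 2 or 3. The 0 for all genes came without mads61-3 replicate 1 or 3, with 2641 and 2608 genes at an unadjusted p under 0.05 (edgeR; no other tool was run on those libraries). GLN1 ranged from -0.61 to 0.19 and OsGDH2 from -0.54 to 0.13 when 1 library was left out. The cause of these shifts was not tested.

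Replicate numbers are shared by the groups. Deviations from the group mean correlated across genes at 0.11, 0.19 and -0.18 for libraries with the same number. Libraries with different numbers correlated at -0.27 to 0.24. With only 3 libraries behind each mean, such values cannot show whether the numbers are pairs. The main fit did not take them as pairs. With the replicate block edgeR called 18 genes higher and 63 lower, 1 assimilation gene lower and 0 transporters. AMT1.2 had 2.18 (adjusted p = 0.328). ASN1 was at -2.07 (adjusted p = 0.0521). The smallest count of a transporter in a library was 41, in AMT3.2 of WT replicate 1.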

Other observations

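Another gene of the family outside the 9 loci, OsAMT4 (Os03g0749000, chromosome 3), had 0 counts in all 3 mads61-3 libraries and in all 3 WT libraries. With 3 counts as the limit, this allows at most 0.0875 to 0.131 CPM per library. This gene was picked with its values in view.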
